A study of Mus musculus with 21 samples.

Results

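The immunoglobulin heavy variable genes, whose symbols begin with Ighv, encode the part of the antibody heavy chain that meets the antigen. In the mouse they lie side by side at the heavy chain locus and are sorted into numbered subgroups by similarity, the number before the dash in the symbol naming the subgroup. A developing B cell joins 1 of them to a diversity and a joining segment, and its descendants, plasma cells included, keep that choice, so that a clone transcribes mainly the Ighv gene it joined. Heavy constant genes such as Ighm and Igha are used by cells of any variable gene, and a whole-tissue level of a given Ighv gene therefore sums over all B lineage cells that chose it. In bulk tissue, fewer cells of a type and less RNA per cell cannot be told apart.

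Every array row whose symbol in the platform annotation begins with Ighv was taken, which gave 94 of the 25428 rows, in 16 subgroups. The rows were chosen by symbol, and the family was selected on the knockout minus control differences of these same livers. For that reason its differences between genotypes are given as a description with standard errors and no p, and the counts past a threshold serve to describe the members only. Subgroup 1 had 47 of the genes, subgroups 2 and 5 had 9 each, subgroups 7, 8, 9 and 14 had 4 each, subgroup 3 had 3, subgroups 10 and 11 had 2, and subgroups 4, 6, 12, 13, 15 and 16 were represented by 1 gene each. All 94 symbols were found in the RefSeq annotation of assembly GRCm38.p6, on chromosome 12, where 88 are typed as V segments and 6 as V segment pseudogenes. That annotation lists 183 Ighv symbols, so the array rows covered part of the locus. No source used here gives the array's own build, so the annotation served for gene type and order only.

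The livers came from 21 mice, 11 controls and 10 knockouts (Gata4-LSEC-KO). Knockout mice came from a cross of the Clec4g-icre driver, C57BL/6N-Tg(Clec4g-icre)1.1Sgoe, to mice with the floxed allele of STOCK Gata4tm1.1Sad/J. Clec4g is a gene of liver sinusoidal endothelial cells, so the Cre acts in a cell type that makes up a small part of the liver, while RNA was taken from whole liver. Controls were siblings labelled wt, and all mice were on the diet labelled std. The sources used here do not give the age and sex of the mice or say whether controls carried the driver or a floxed allele. Each array was taken as 1 animal, since the labels call the samples biological replicates.

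Values were log2 array signals of 1 gene per row, with a median of 3.75 over the arrays. A signal depends on the probes as well as on the transcript, so signals were compared between livers and not between genes. Sample numbers in the descriptions fall into 2 runs of consecutive numbers, of 5 controls with 4 knockouts and of 6 controls with 6 knockouts, which the labels do not call batches. The run was a term of the fit. Gata4, the targeted gene, averaged 6.73 ± 0.29 (SD) over the 11 control livers and 6.53 ± 0.23 over the 10 knockout livers, and its difference did not pass (limma adjusted p = 0.26), so it does not check the labels here. All 10 hepatocyte markers were at high signal. Of these, 1, Apoa2, was lower in knockouts (-0.30 ± 0.067 SE), where 4.05% of all rows were called lower. Control 4 and knockout 6 had the lowest median correlation with the other arrays of their group, 0.980 and 0.981.

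Most Ighv genes were at low signal and stood somewhat higher in knockout livers. The knockout minus control difference on the log2 scale was above 0 in 78 of 94 genes (83.0%), against 45.1% of all rows. Its median was 0.20, against -0.013 over all rows. A difference of more than 1 occurred in 5 genes (5.32%), against 0.617% of all rows. An adjusted p under 0.05 in limma was met by 19 genes in the direction of knockout (20.2%), where 3.28% of all rows were called higher, and by 1 gene in the direction of control (1.06%), where 4.05% of all rows were called lower. The rule for the members used this contrast, so nothing is read from these shares. The median of the differences was 0.19 in the first run and 0.22 in the second, and 68 and 76 of the 94 genes were above 0. All 19 genes called higher were above 0 in both. They were called on the 2 runs together, so this is not a separate check. Within the first run alone 0 genes were called higher in limma, and within the second 8. Without control 4 and knockout 6 there were 12. On the lower side there were 3 genes without control 1, and 2 without knockout 2 or without control 10. Member values scattered more than those of other rows, with a median standard error of 0.14 against 0.078.

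**Figure D1:**
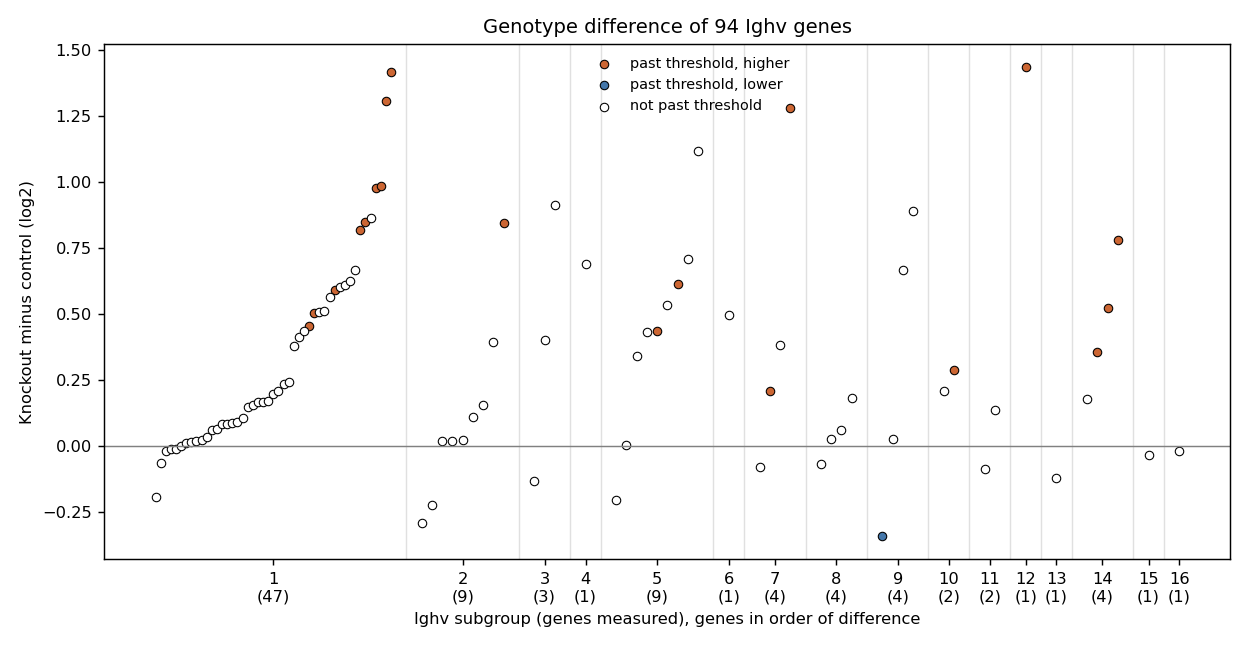
Knockout minus control difference in log2 signal (vertical axis) for each of the 94 Ighv genes, arranged by subgroup with the number of genes measured in brackets and in order of difference within each. Filled points are the 19 genes past the threshold in the direction of knockout and the 1, Ighv9-4, in the direction of control, and open points the other genes. Filled points stand in 7 subgroups on the higher side, and many open points of subgroup 1 lie near 0.

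The 19 genes were spread over 7 subgroups: 9 of the 47 genes of subgroup 1, 3 of 4 in subgroup 14, 2 of 9 in subgroup 5, 2 of 4 in subgroup 7, and 1 each in subgroups 2, 10 and 12. Subgroups 3, 4, 6, 8, 9, 11, 13, 15 and 16 had none. Without control 7, control 8 or control 9 the genes called higher lay in 4 subgroups. Subgroup 14 had a median difference of 0.44 with all 4 genes above 0, and subgroup 5 also had 0.44, with 8 of 9 above 0. Subgroup 1 had 42 of 47 genes above 0 at a median of 0.20. Subgroup 2 (median 0.024), subgroup 8 (0.044) and subgroup 11 (0.024) were close to 0, and the single genes of subgroups 13, 15 and 16 were slightly below it. Subgroups of 1 gene rest on a single row, and near-identical relatives can share probe sequence, so neighbouring members of a subgroup may not be independent readings.

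Ighv12-3, the single gene of subgroup 12, had the largest mean difference. Its log2 signal in controls was 2.53 at the lowest, 2.89 at the median and 4.29 at the highest, and in knockouts 2.98, 4.40 and 7.02. Knockout 10 stood at the top, knockouts 5 and 6 followed at 5.70 and 5.21, and the groups overlapped. The difference was 1.43 ± 0.31 (SE), a fold of 2.70. It was past 1 above the control mean of the run in 6 of 10 knockouts.

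Ighv1-7, of subgroup 1, differed by 1.42 ± 0.27. Controls ran from 2.94 over a median of 3.85 to 4.48, and knockouts from 4.16 over 4.98 to 6.72. Knockout 4 was highest and knockout 6 next at 6.17, and knockouts 1 and 8, at 4.16 and 4.37, fell among the controls. A rise of more than 1 over the control mean of the run was present in 7 of 10 knockouts, the most of any Ighv gene.

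Ighv1-76 lay between 2.62 and 3.14 in controls, with a median of 2.81, and between 3.10 and 6.12 in knockouts, with a median of 3.90. Its difference was 1.31 ± 0.28. Knockout 6 and knockout 4, at 6.12 and 5.28, were far above the other knockouts, while the lowest knockout was within the range of controls.

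Ighv7-3, typed as a pseudogene in RefSeq, had a difference of 1.28 ± 0.37. Controls ran from 2.42 over a median of 2.69 to 4.12, and knockouts from 2.64 over 3.86 to 6.19. The knockouts split widely: knockouts 6 and 10 were at 6.19 and 6.14, and 6 of the 10 knockouts were below the highest control. Controls 6 and 11 were the 2 highest of the controls, at 4.12 and 3.98.

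Ighv1-9 and Ighv1-37, both of subgroup 1, each differed by 0.98, with standard errors of 0.18 and 0.22. Ighv1-9 stood at 2.58 to 2.98 in controls and 2.61 to 4.51 in knockouts. Ighv1-37 stood at 4.25 to 5.99 in controls and at 5.10 to 7.02 in knockouts, at a signal well above the array median. Both overlapped between the groups.

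Ighv1-64 was the only member for which every knockout was above every control, 2.38 to 3.55 against 2.20 to 2.35, and it is named after its values were seen. That is 1.06% of the members against 0.0905% of all rows. Both groups were below the array median, and the difference was 0.46 ± 0.12.

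**Figure D2:**
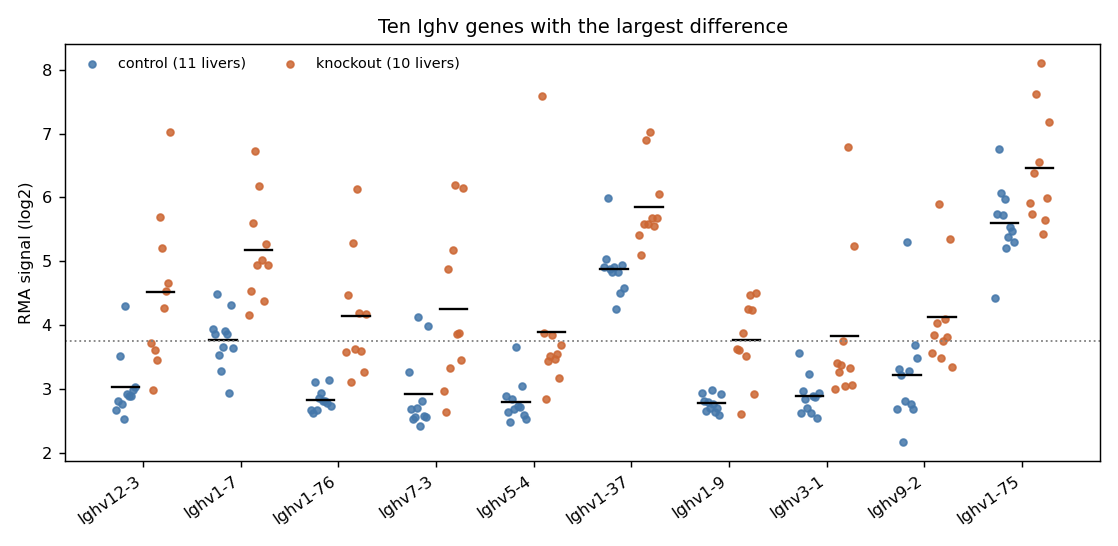
Log2 signal (vertical axis) of the 10 Ighv genes with the largest knockout minus control difference, with each liver as a point, controls and knockouts apart, bars at the group means and the dotted line at the median signal of the arrays, 3.75. Controls form a tight low band in Ighv1-76, Ighv1-9, Ighv5-4 and Ighv3-1 and spread more widely or lie higher in the other panels, with single knockouts far above the rest in Ighv5-4 (7.60) and Ighv3-1 (6.79).

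Among the 10 largest differences, Ighv5-4, Ighv3-1, Ighv9-2 and Ighv1-75 did not pass the threshold, and their knockouts were uneven. Ighv5-4 was at 2.48 to 3.65 in controls and at 2.83 to 3.87 in 9 knockouts, while knockout 1 was at 7.60. Its difference of 1.12 ± 0.39 was 0.67 without knockout 1, and it then passed the threshold. Ighv3-1 had its highest value in knockout 7 at 6.79, followed by knockout 10 at 5.24 and a knockout median of 3.35, against controls of 2.54 to 3.57. Its difference of 0.91 ± 0.35 was 0.60 without knockout 7. Ighv4-1 was at 2.23 to 2.58 in controls and had a knockout median of 2.59, with knockout 4 at 6.60. Its difference of 0.69 ± 0.35 was 0.27 without that liver.

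Ighv9-2 had a difference of 0.89 ± 0.34, with controls from 2.17 to 5.30 and knockouts from 3.35 to 5.90. It passed without control 6, the highest control. Ighv1-75, at 4.43 to 6.76 in controls and 5.43 to 8.11 in knockouts, had a difference of 0.86 ± 0.31.

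Not all members stood higher. Ighv9-4 was at 4.94 to 5.53 in controls and at 4.67 to 5.40 in knockouts, a difference of -0.34 ± 0.089, and was the 1 member past the threshold on the lower side. Ighv2-2 (-0.29 ± 0.093), Ighv2-3 (-0.22 ± 0.21), Ighv5-15 (-0.20 ± 0.12) and Ighv1-23 (-0.19 ± 0.097) did not pass. The livers overlapped in all 5 of these genes.

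The gene of highest mean signal in each remaining subgroup was described as well. Ighv5-9-1 ran from 3.90 to 4.83 in controls and from 4.39 to 5.75 in knockouts, a difference of 0.61 ± 0.17. Ighv14-1 ran from 3.10 to 4.52 in controls, with knockouts up to 4.66 and a knockout median of 4.39, a difference of 0.52 ± 0.13. Ighv10-1 was at 2.44 to 2.76 and 2.43 to 3.25 (0.29 ± 0.088). These passed the threshold, and Ighv6-3 (0.50 ± 0.17), Ighv7-1 (0.38 ± 0.25) and Ighv8-6 (0.18 ± 0.079) did not. Ighv13-1 (-0.12 ± 0.068), Ighv15-2 (-0.034 ± 0.072) and Ighv16-1 (-0.018 ± 0.045) were at low signal in every liver.

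The members were also split by signal. Of the 9 Ighv genes with a mean log2 signal of 5 or more, a value chosen after the data were seen, 1 was called higher (Ighv1-37; 11.1%, all rows 6.03%) and 1 lower (Ighv9-4), and the median difference was 0.020. In Ighv2-3 controls ran from 8.61 to 10.28 and knockouts from 7.76 to 9.96, and in Ighv11-2 (-0.087 ± 0.22) from 6.56 to 7.90 against 6.28 to 8.01. Of 13 genes between the array median and 5, 4 were called higher (30.8%, all rows 4.62%), with a median of 0.52. Of 72 genes below the array median, 14 were called higher (19.4%, all rows 0.973%), with a median of 0.18. Low signals lie close to background, which compresses a difference.

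The members were also split by gene type and by position. Over all rows 3.28% were called higher. Of the 88 V segments, 18 were called higher (20.5%), with a median difference of 0.21. Of the 6 pseudogenes, 1 was called higher (16.7%), Ighv7-3, and the others lay between -0.020 and 0.38. In the order of the locus, the 31 members nearest the Ighm side had 5 called higher (16.1%) and a median of 0.34. The middle 32 had 9 (28.1%) and 0.21, and the farthest 31 had 5 (16.1%) and 0.18. The nearest block had no gene of subgroup 1 and the farthest had 27, so position and subgroup cannot be told apart.

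The genes with the highest rises differed between some knockouts and were shared by others. The rise of a gene in a liver was its log2 signal minus the mean of the controls of the same run, and a control enters its own mean. In knockout 1 the 5 highest rises were all in subgroup 5: Ighv5-4 (4.89), Ighv5-12 (2.49), Ighv5-6 (1.80), Ighv5-9-1 (1.24) and Ighv5-9 (1.16). In all, 5 of the 9 subgroup 5 genes were past 1 there, and as relatives that can share probe sequence they may not be independent readings. In knockout 4 the highest were Ighv9-3 (4.41), Ighv4-1 (4.23) and Ighv9-2 (3.06), from subgroups 9 and 4. In knockout 6 they were Ighv1-14 (3.86), Ighv1-76 (3.26) and Ighv7-3 (3.12), and in knockout 10 Ighv12-3 (3.85), Ighv7-3 (3.07) and Ighv5-16 (2.88).

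Knockout 7 was led by Ighv3-1 (3.94), knockout 5 by Ighv12-3 (2.53), with Ighv7-3 and Ighv5-16 next, the same 3 genes in the same order as in knockout 10, knockout 3 by Ighv7-3 (2.13), knockout 9 by Ighv9-2 (1.81), knockout 2 by Ighv1-76 (1.68) and knockout 8 by Ighv7-1 (1.51). The 10 knockouts had 9 different leading genes, and the 11 controls had 10. Over their 30 places among the top 3, 18 different genes of 7 subgroups appeared, Ighv7-3 in 4 livers and Ighv12-3 in 3, and over the 33 places of the controls 27 different genes. The leading genes named here were chosen after their values were seen.

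**Figure D3:**
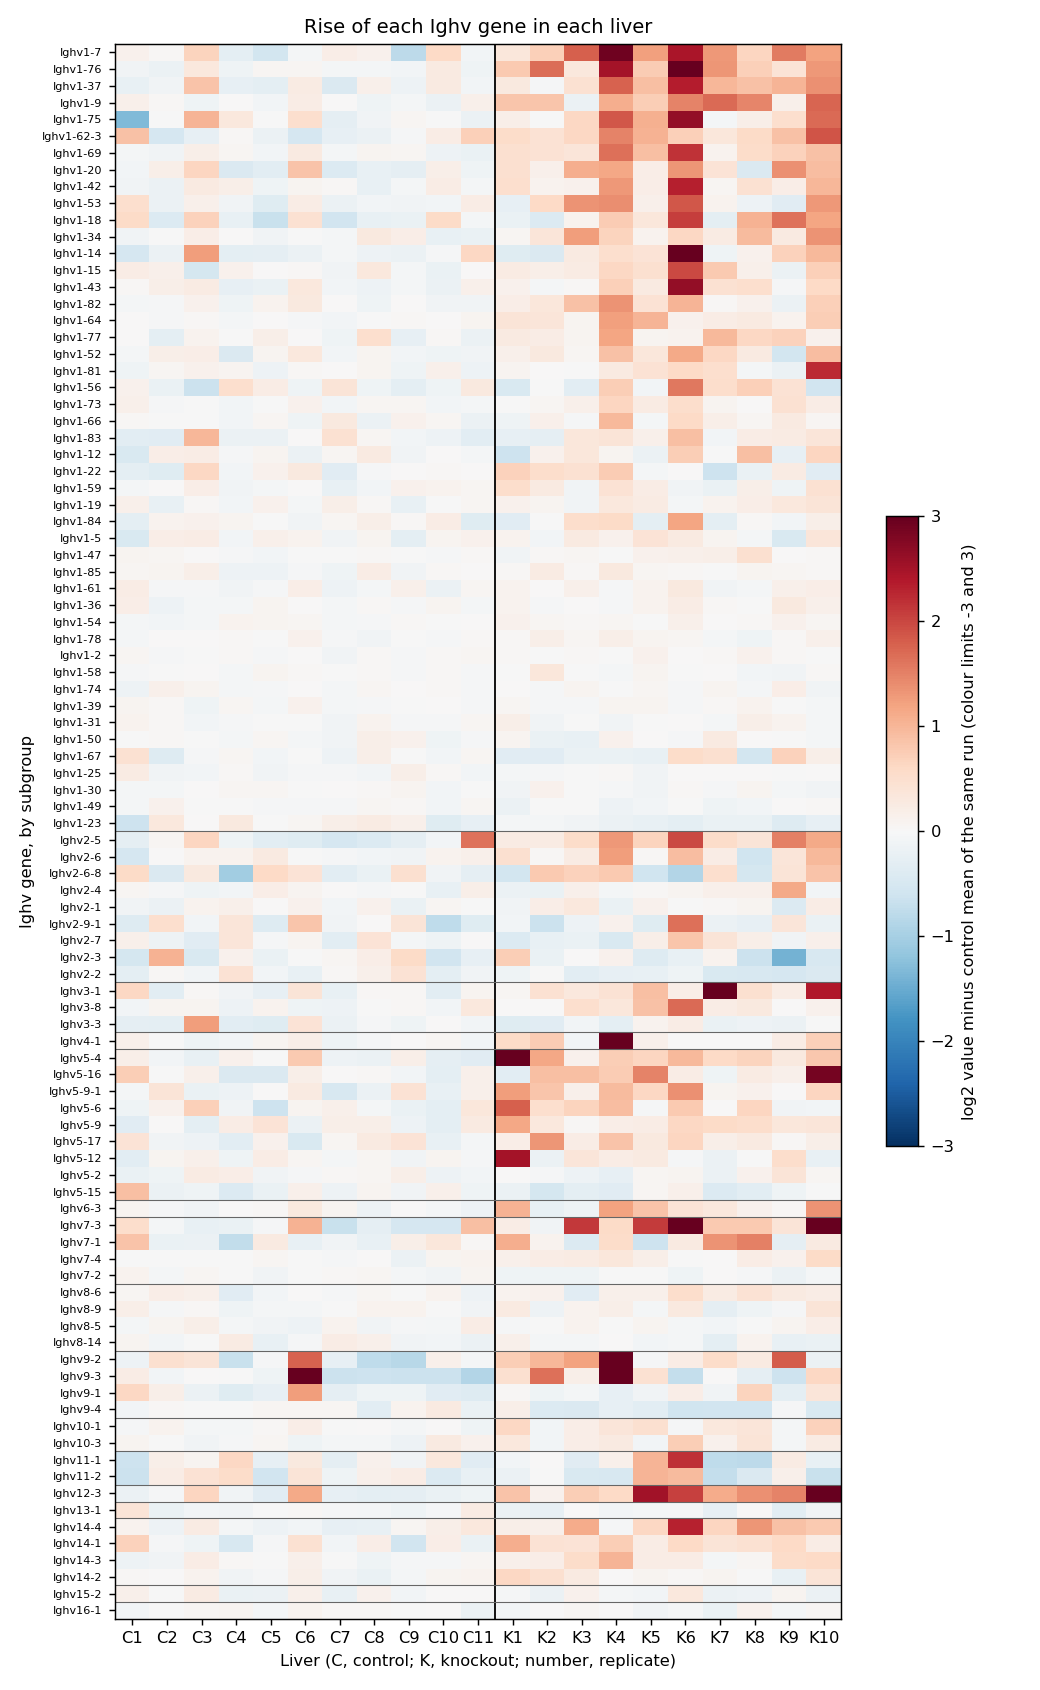
Rise of each of the 94 Ighv genes (one line per gene, ordered by subgroup) over the control mean of the same run, in log2 units, in each of the 21 livers (columns, controls then knockouts), on a colour scale limited as its bar shows. Some strong rises lie in a single knockout (Ighv4-1 in knockout 4, Ighv5-4 in knockout 1) and others in several (Ighv7-3, Ighv12-3, Ighv1-7), the densest columns are knockouts 4, 6 and 10, and a few genes stand out in control 6.

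Rises also occurred in controls, but seldom. A control enters its own mean, which makes its rises smaller by construction. A rise of more than 1 was reached by 47 genes in at least 1 knockout, 20 of them in exactly 1 liver, 27 in 2 or more and 5 of them in 5 or more: Ighv1-7, Ighv12-3, Ighv1-76, Ighv1-37 and Ighv1-9. Over gene and liver together there were 110 such rises in the 10 knockouts, of which 61 were in knockouts 4, 6 and 10, and 11 in the 11 controls. Per liver that is a mean of 11.7% of the members in knockouts and 1.06% in controls, against 1.26% and 0.223% of all rows, so rises were also more frequent in knockouts over all rows. The control rises were 1 each in 11 genes. Control 6 had Ighv9-3 at 6.66, a rise of 3.43, with Ighv9-2 (1.77) and Ighv9-1 (1.27) of the same subgroup, which may not be independent readings. Control 3 had Ighv1-14 (1.26) and Ighv3-3 (1.24). Ighv9-3 was thus high in 1 control (6.66) and 1 knockout (6.92), and its mean difference of 0.66 ± 0.53 (SE) was smaller than the SD of the controls, 1.25.

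Breadth was counted as the number of Ighv genes above the highest other control of the same run. Knockouts 1 to 10 had 32, 27, 26, 50, 36, 54, 24, 32, 32 and 46 of 94 genes above that bound, a median of 32. Controls had from 5 to 34, with a median of 13, and controls 6, 3 and 1 had the most, 34, 32 and 30. The groups overlapped, and knockouts were set against 5 or 6 controls and controls against 4 or 5, so a control passes the bound more easily by construction. Over all rows the same measure took in 13.5% to 25.6% of rows in knockouts and 15.7% to 24.9% in controls, against 25.5% to 57.4% and 5.32% to 36.2% of the Ighv genes.

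Counted as rises of more than 1, breadth was 5 to 25 genes in knockouts and 0 to 5 in controls, with 7 of the 11 controls at 0. Here the control counts are held down by construction, since a control enters its own mean. As shares the counts in knockouts and controls were 5.32% to 26.6% and 0% to 5.32% of the members, against 0.476% to 2.01% and 0.0747% to 0.885% of all rows. Rises of more than 1 covered 3 to 8 subgroups in each knockout and 0 to 3 in each control. Knockout 6 held the highest value of 26 of the 94 genes, knockout 4 of 14 and knockout 10 of 11, 51 in all. The mean rise over the 94 genes was 0.16 to 0.70 in knockouts, with a median of 0.23, and -0.085 to 0.17 in controls.

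**Figure D4:**
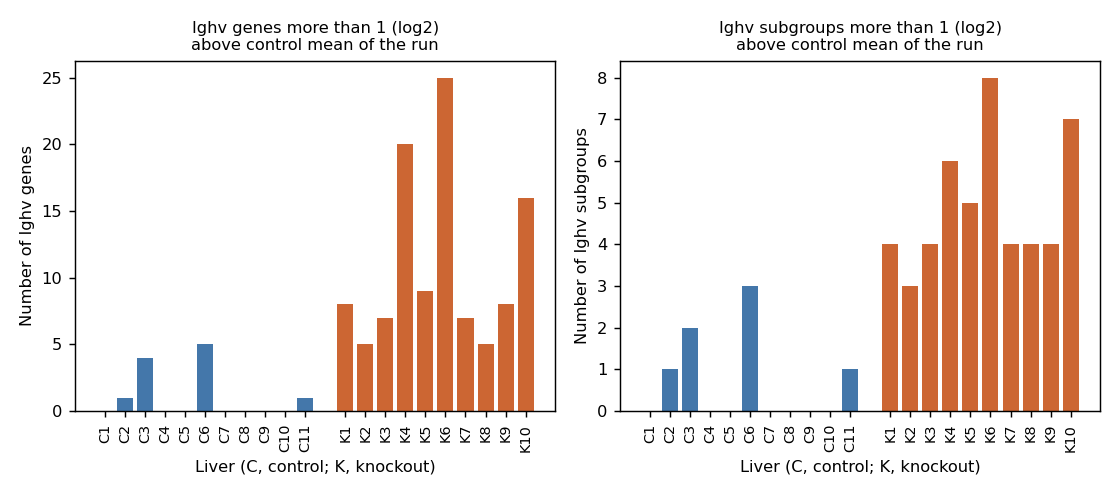
Number of the 94 Ighv genes (left) and of Ighv subgroups (right) with a rise of more than 1 per liver (bars), for the 11 controls and the 10 knockouts. Knockouts 6, 4 and 10 reach 25, 20 and 16 genes, and all 10 knockouts have 5 or more, while 7 controls have 0. Subgroups with such a rise number 3 to 8 in knockouts and 0 to 3 in controls.

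Whether the genotype difference depended on the run was tested with an interaction term, a test the choice of members did not use. None of the 94 genes passed after adjustment in limma, against 0.0315% of all rows (8 rows). At an unadjusted p under 0.05 there were 4 members (4.26%), against 10.2% of all rows, and 4 again with an intensity trend. Those 4 were Ighv12-3, whose difference was larger in the second run by 1.49 ± 0.55 (SE), Ighv1-22 (-0.78 ± 0.23), Ighv5-6 (-0.77 ± 0.35) and Ighv2-7 (0.60 ± 0.22). The median interaction over the members was 0.021.

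Control livers alone were compared between the runs in the same way. None of the 94 genes passed after adjustment in limma, against 3.57% of all rows. At an unadjusted p under 0.05 there were 6 members (6.38%), against 15.9% of all rows, and 7 with an intensity trend. The differences, second run minus first, ran from -0.46 in Ighv1-37 to 0.73 in Ighv9-3, with a median of -0.0095, and the value of Ighv9-3 came with a standard error of 0.66, control 6 being far above the other controls.

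The constant genes and other genes of the antibody-forming lineage show what accompanied the variable genes. The lists of these genes were chosen with earlier results of these data known, so their differences are a description, without p for single genes. Of 7 measured heavy constant genes, 5 were higher in knockouts (limma, adjusted over all rows), where 3.28% of all rows were called higher. Igha differed by 1.74 ± 0.28, Ighm by 1.93 ± 0.39 and Ighg1 by 2.20 ± 0.40. Ighg2c differed by 2.20 ± 0.50 and Ighg2b by 1.78 ± 0.51. Ighg3 (0.62 ± 0.56) and Ighe (0.0019 ± 0.12) did not pass. The light chain constant gene Igkc differed by 2.24 ± 0.41 and was called higher. It ran from 7.06 to 11.2 in controls and from 9.96 to 12.1 in knockouts. Control 3 was the highest control for Igkc at 11.2 and the highest of all livers for Ighg2b at 9.05, while its mean rise over the Ighv genes was 0.12. In Ighg3, knockout 6 was at 9.10 and the next knockout at 4.17.

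Light chain variable genes were described in the same way. Of 102 Igkv genes, 27 were called higher and 1 lower, against 3.28% and 4.05% of all rows. Their median difference was 0.45, against -0.013 over all rows, and of 3 Iglv genes 2 were higher. These families share the samples with the Ighv genes and are shown as values only.

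**Figure D5:**
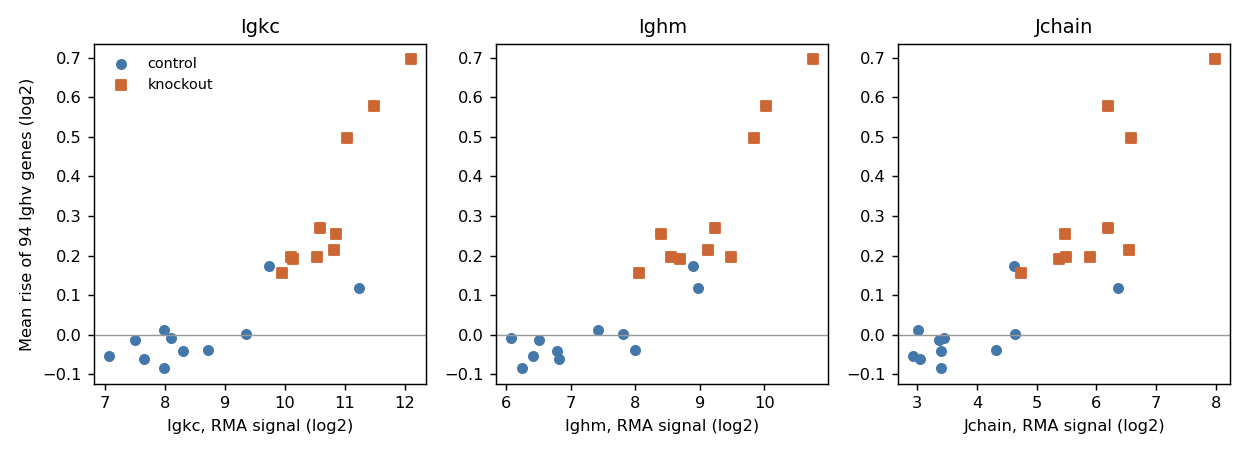
Mean rise of the 94 Ighv genes in each liver (vertical axis, log2) against the log2 signal of Igkc, Ighm and Jchain (horizontal axes, one panel each), with controls and knockouts marked apart. Knockouts mostly lie higher on both axes and overlap with controls 3 and 6, knockout 6 is at the top at 0.70, and control 3 is at an Igkc signal of 11.2 with a mean rise of 0.12.

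Beside the counts of this paragraph, 3.28% of all rows were called higher. Among 15 plasma cell genes, 2 were higher, Jchain, which encodes the joining chain of IgA and IgM, by 2.16 ± 0.40 and Fkbp11 by 0.86 ± 0.16. The plasma cell markers Mzb1, Xbp1, Prdm1, Irf4, Sdc1 and Tnfrsf17 did not pass, with differences from -0.21 to 0.24, and the lowest difference of the list was that of Sec11c (-0.27 ± 0.11), which did not pass either. Of 17 B cell genes, 6 were higher. Fcer2a, the low-affinity IgE receptor, differed by 1.08 ± 0.082. All its knockouts (3.66 to 4.51) were above all its controls (2.83 to 3.14), as in 0.0905% of all rows. The cell source of the Fcer2a signal was not tested. Groups overlapped in the other called genes: the signalling adaptor Blnk (0.65 ± 0.13), the receptor chains Cd79a (0.57 ± 0.14) and Cd79b (0.54 ± 0.15), Bank1 (0.45 ± 0.13) and Btk (0.30 ± 0.090). Ms4a1 (0.57 ± 0.19) did not pass. Nor did the rest of the list, among them Ebf1 (0.21 ± 0.095), Spib (0.20 ± 0.080), Fcmr (0.13 ± 0.058) and Pax5 (0.11 ± 0.056). The 17 differences went down to -0.049, with a median of 0.21, and 13 of these genes had a mean signal below the array median. None of 6 B cell precursor genes, 8 germinal centre genes or 2 octamer factor genes was called in limma after adjustment, and 2, 2 and 0 of them were under an unadjusted p of 0.05. The mean rise of the plasma cell genes was 0.0044 to 0.55 in knockouts and -0.11 to 0.21 in controls, and that of the B cell genes 0.17 to 0.57 and -0.13 to 0.25. Of 13 genes for B cell attraction and survival, 1 was higher, the chemokine receptor Cxcr4, by 0.60 ± 0.18, and Cxcl13 had 1.11 ± 0.39 without passing. The median difference of these 13 genes was -0.013, close to that over all rows, so nothing is read from this count.

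Markers of other cells were read in the same livers, where 3.28% of all rows were called higher. Of 11 neutrophil genes 1 was called higher in limma after adjustment, Ngp, a neutrophil granule protein, by 2.68 ± 0.58. The mean rise of the 11 neutrophil genes was 0.13 to 5.30 in knockouts and -0.13 to 0.088 in controls, and it was highest in knockout 6, which also had the highest Ighv breadth, and second in knockout 3 at 2.80, where breadth was 26. Of 11 T cell genes, 2 were higher, Cd3e by 0.26 ± 0.072 and Trac by 0.66 ± 0.19, and the mean rise of the list was -0.11 to 0.29 in knockouts and -0.12 to 0.19 in controls. None of 7 erythroid genes was called in limma after adjustment, 2 being under an unadjusted p of 0.05. The part of any of these cells in the Ighv values was not tested.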

How the data were processed

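Biotin-labelled RNA of whole liver was read on Affymetrix arrays, as the labels' protocols state. The deposited table held the authors' log2 values, made by RMA per the submitters' processing notes. This method subtracts background, makes the arrays share 1 distribution and summarises the probes of a gene. Such values understate differences near background, and the array number limits precision. All 25428 rows were fitted without a filter in R 4.3.3 with the linear models and moderated variances of limma 3.58.1, with genotype and run as terms, and p-values were adjusted by Benjamini-Hochberg over all rows (threshold 0.05). The fitting code was tested on simulated data. Differences are knockout minus control with the standard error of the fit.

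The members and gene lists were chosen with earlier results of these data known. Named genes were the 10 Ighv genes with the largest and the 5 with the smallest difference, the gene of highest mean signal in each subgroup, the constant genes, and up to 3 genes of every other list. Other list genes, such as Cd79b, Bank1, Btk, Ms4a1 and Cxcl13, are given in the text outside this rule. They were not among the series looked at for values that stood apart. Alternatives covered the run term, runs apart, the replicate block, normalization, a signal filter, moderation, array weights, the breadth measure and each liver left out. Figures used matplotlib 3.10.9.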

Additional observations from a re-analysis of the deposited data

Results flagged for a closer look

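In 8 of 67 series of values looked at, the highest or lowest of the 10 knockouts stood apart from its nearest neighbour by more of the group's range than Dixon's critical value allows. Chance gives this in about 1 in 20 groups taken without regard to their values. Many of these genes were named for their differences between the same livers, so that rate does not apply to them. Ighv5-4 was at 7.60 in knockout 1, where the next knockout was at 3.87. Ighv4-1 was at 6.60 in knockout 4, with the next at 3.13. Ighg3, a heavy constant gene, was at 9.10 in knockout 6, with the next at 4.17, and Pou2af1, a B cell coactivator, was at 4.11 in the same liver, with the next at 3.62. The erythroid genes Hemgn and Slc4a1 were at 3.58 and 4.75 in knockout 9, with the next at 3.33 and 3.88. On the low side, Fkbp11 was at 5.34 in knockout 2, with the next at 6.33, and Cd3e was at 3.49 in knockout 5, with the next at 3.90.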

How the results depend on the processing

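The count of Ighv genes past the threshold depended on the setting more than the median difference did. Of the 19 genes on the higher side, 17 remained without the run term and 17 of 18 called were shared with an intensity trend and robust prior or with array weights. Within the first run 0 were called higher and 0 lower, in 0 subgroups (median 0.19), and within the second 8 higher and 0 lower, with fewer samples in each fit. With a replicate block there were 11 higher and 0 lower, in 4 subgroups; the numbers do not pair the livers (the correlations of same-numbered livers ran from -0.17 to 0.082, and 0 of 10 were best matches). With rows at or above the median signal only, 22 members were left, of which 7 were higher and 2 lower in 3 subgroups, with a median of 0.41 and a median breadth of 7. Breadth counted as a rise of more than 1 was 8 genes. Without control 4 and knockout 6, an alternative chosen after seeing the data, 12 were higher and 0 lower. Leaving out each liver gave 13 to 21 higher (13 without knockout 4, control 8 or control 9), 1 to 3 lower (3 without control 1), 4 to 8 subgroups (4 without control 7, 8 or 9), a median difference of 0.17 to 0.23, a median breadth of 32 to 40, and for the interaction 0 throughout. In the comparison of runs among controls it gave 0 to 1, with 1 without control 3. Ighv10-1 lost its call in 17 of 21 such settings and Ighv7-3 in 10. Over 26 named genes and 791 gene settings, 57 lost the call, 12 gained it and 0 called genes reversed direction. In the other 722, a gene called in either fit kept its call and direction. A gene called in neither moved by less than the SD of its knockouts, and its direction was not checked. A second quantile normalization and median centring gave 19 higher and 1 lower. Signal over background could not be weighed from these values.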
